A study of Penaeus japonicus with 16 samples.

Results

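The transcript signals of the lymphoid organ of kuruma shrimp (Penaeus japonicus) were compared with those of gills, hemocytes, hepatopancreas and muscle. The members are the 3 arrays labelled lymphoid organ, of 16 arrays in all, chosen by their tissue label and set against the equal-weight mean of the other 4 tissue means. Gills, hepatopancreas and muscle also had 3 arrays each and hemocytes had 4. Every sample came from untreated shrimp that appeared healthy, and the labels gave no strain, sex or age. Whether replicate arrays held RNA of different animals or of pools is not stated in the labels, so p-values measured only the spread between these samples, which may be technical.

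The lymphoid organ of penaeid shrimp is a paired organ of folded arterial tubules that lie close to the stomach. Its tubule walls hold stromal cells and hemocytes, and the organ is known for filtering hemolymph, for taking up and degrading foreign particles and for collecting material during viral infection. Hemocytes are the circulating blood cells, which carry out clotting, melanisation and the release of antimicrobial peptides. The hepatopancreas makes digestive enzymes and hemocyanin, the blood pigment, and the gills exchange gas and ions.

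Cy3-labelled RNA was read on a custom oligonucleotide array of 13875 probes for shrimp and virus transcripts, on 2 slides of 8 arrays. After the 526 white spot syndrome virus probes were set aside, 13349 probes were used, and the test covered the 10220 that had a detected signal on all usable arrays of some tissue. Detected probes made up 84.5, 71.2 and 71.0% of lymphoid organ arrays 1, 2 and 3, against 42.2 to 79.7% of the 13 other arrays. Signals are given as log2 of the processed signal over the 75th percentile of the same array, so that 0 is the 75th percentile. The number of arrays limited the precision of every estimate. The 3 lymphoid organ arrays correlated at 0.906 to 0.929 (Pearson, across probes, which are not independent replicates). Their mean correlation was 0.770 with hemocytes (12 pairs), 0.768 with gills (9), 0.684 with muscle (9) and 0.611 with hepatopancreas (9).

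The label was checked against markers of the other tissues, since no single gene was taken to define the lymphoid organ. Summed over 36 sarcomere probes, the signal was 148.9 to 252.8 times the 75th percentile in the lymphoid organ and 43910 to 79390 times in muscle. Detection did not separate the tissues: 3 of these probes were detected on no lymphoid organ array and 6 on no muscle array. For 75 digestive enzyme probes the sums were 100.9 to 170.2 in the lymphoid organ and 12080 to 51310 in hepatopancreas. Of these probes 17 were detected on no lymphoid organ array and 12 on no hepatopancreas array. The 35 clotting and melanisation probes listed for hemocytes were not specific to them. They summed to 733 to 1084 in the lymphoid organ, 2045 to 4171 in hemocytes, 1476 to 3798 in gills, 148.8 to 393.1 in muscle and 109.9 to 253.8 in hepatopancreas. Of these probes 31 were detected on all lymphoid organ arrays, 32 on all gill arrays and 25 on all hemocyte arrays. The 60 gill ion transport probes set the tissues apart far less. Their sums were 282.3 to 418.2 in the lymphoid organ, 449.7 to 559.9 in gills and 261.3 to 393.3 in hemocytes. In muscle they were 149.2 to 244.9 and in hepatopancreas 68.0 to 207.6. In bulk tissue, fewer cells of a type and less RNA per cell cannot be told apart.

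In the lymphoid organ 660 of the 10220 tested probes (6.46%) were higher than the mean of the other tissues and 291 (2.85%) were lower, at an adjusted p below 0.05 and at least 2-fold (limma with Benjamini-Hochberg adjustment over all tested probes). Among them, 552 higher probes carried 448 distinct named descriptions and 249 lower probes carried 233. The lymphoid organ had the highest mean of all 5 tissues at 338 of the 660 higher probes, while hemocytes were highest at 185, hepatopancreas at 88, gills at 34 and muscle at 15. At the 338 probes the next highest tissue was hemocytes for 118 and gills for 101. At the lower probes the lymphoid organ was the lowest tissue for 150 of 291, and muscle was the highest tissue for 166. Together these were 9.31% of the tested probes. At 143 probes (1.4%) all 3 lymphoid organ arrays lay above all 13 others, among them 137 of the 660 higher probes, and at 19 (0.186%) they lay below all. Enriched probes, at least 4-fold above each other tissue with an adjusted p below 0.05 in each, numbered 75 (0.734% of those tested). Of these, 71 were named, under 53 distinct descriptions, and 72 lay above all 13 other arrays on every lymphoid organ array. Probes detected on all usable arrays of no other tissue entered the test only through the lymphoid organ, so the filter favoured higher calls among them. The 75 include 10 such probes that were detected on none of the 13 other arrays. They also include such probes that were detected on some other arrays but on all arrays of no other tissue. Examples are heme-binding protein 2 (cluster022202), glutathione s-transferase (cluster013187), sugar transporter (cluster034117) and the organic anion transporter 5a1-like (cluster009696). With no detection filter 74 were enriched, 73 of them among the 75.

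Of the calls 69.4% were higher, a share that moved with the scaling and with the arrays used. It was 72.7% with common-probe scaling, 62.0% with quantile normalization and 73.0, 83.4 and 76.6% without lymphoid organ 1, 2 or 3. With the array median as the scale the median difference of all tested probes moved from 0.10 to -0.12, a shift of -0.21, and 487 higher and 472 lower probes made 50.8% higher. The counts also rested on each lymphoid organ array. With lymphoid organ 1 left out they were 319 higher, 118 lower and 54 enriched, with lymphoid organ 2 left out 326, 65 and 46, and with lymphoid organ 3 left out 343, 105 and 54. A fit that blocked on slide gave 633, 268 and 75. On slide 1 alone, which held lymphoid organ 1 and 2, limma called 1.05% of the probes higher, 21 probes lower and 0 enriched, and 73 met the enriched folds at an unadjusted p below 0.05. On slide 2 alone, where lymphoid organ 3 stood by itself and was assumed to vary like the other tissues, limma called 1 higher, 0 lower and 2 enriched. At an unadjusted p below 0.05 and 2-fold, 799 were higher and 190 lower there.

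The strongest difference belonged to an anti-lipopolysaccharide factor (cluster015821), one of a family of crustacean antimicrobial peptides that bind bacterial lipopolysaccharide. Its signal was 4.22, 5.97 and 5.91 on lymphoid organ arrays 1, 2 and 3. In hepatopancreas it averaged -0.83 ± 0.67 (SD, n = 3), and it was detected on 1 of 3 gill arrays and on no hemocyte or muscle array. All 3 lymphoid organ arrays lay above all 13 others. The fitted log2 difference was 9.18 (SE 0.65, adjusted p = 1.47e-06), which as a bound was at least 285-fold. For such bounds a spot without detection was given no less than the dimmest detected signal on its array. Over hepatopancreas, the closest tissue, the signal was 73.3-fold higher. The difference was 8.27 on slide 1 alone and 10.01 on slide 2 alone.

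Sodium-coupled monocarboxylate transporter 1 (cluster017578), which in mammals carries lactate and short-chain fatty acids into cells, stood at 6.89, 3.36 and 1.35 in the lymphoid organ. It was undetected in hemocytes and at least 44.3-fold above muscle, the closest tissue (difference 7.43, SE 0.93, adjusted p = 0.000125). The groups did not overlap, although the lymphoid organ arrays themselves were far apart. Solute carrier organic anion transporter family member 5a1-like (cluster009696) read 5.02, 1.28 and -0.90 and exceeded muscle at least 19.1-fold (6.08, SE 0.95, adjusted p = 0.000704). Family member 4c1 (cluster030891) read 2.31, 1.29 and -0.97 (5.75, SE 0.72, adjusted p = 0.000132). It was detected on none of the 13 other arrays, so it entered the test only through the lymphoid organ. These carriers bring organic anions across the cell membrane. Probes described as sugar transporter (cluster034117, 5.27) and organic cation (cluster033728, 5.05) were enriched as well. Their families went different ways: of 7 tested organic anion transporter probes 2 were higher and 1 was lower, and of 15 monocarboxylate transporter probes 5 were higher.

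Heme-binding protein 2, of the SOUL family of heme-binding proteins, was carried by a pair of enriched probes. At cluster022204 the lymphoid organ arrays read 6.24, 5.06 and 3.37, against -0.80 ± 1.37 (SD, n = 3) in muscle, the closest tissue, which is 51.5-fold lower (6.62, SE 0.62, adjusted p = 2.39e-05). At cluster022202 they read 3.77, 2.71 and 0.79, with detection on 1 gill array among the 13 others (7.57, SE 0.68, adjusted p = 2.39e-05). Of the 6 heme-binding protein 2 probes tested, the other 4 were not called.

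Glutathione s-transferase (cluster013187), which joins glutathione to reactive compounds, gave 1.22, 1.62 and 1.29, the smallest range of the 75 enriched probes (0.40). It was at least 14.4-fold above hepatopancreas (5.59, SE 0.53, adjusted p = 2.39e-05), and the groups did not overlap. Of 20 tested glutathione s-transferase probes 3 were higher and 1 was lower, with a median of -0.51. The probes for glucosyl glucuronosyl transferases, which attach sugars to small molecules, read 3.58, 1.53 and -0.58 at cluster009387 (5.74, SE 0.92, adjusted p = 0.000851) and 3.67, 1.70 and -0.45 at cluster009386 (5.55, SE 0.89, adjusted p = 0.000851). No other probe of the 17 with that description was called.

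**Figure D1:**
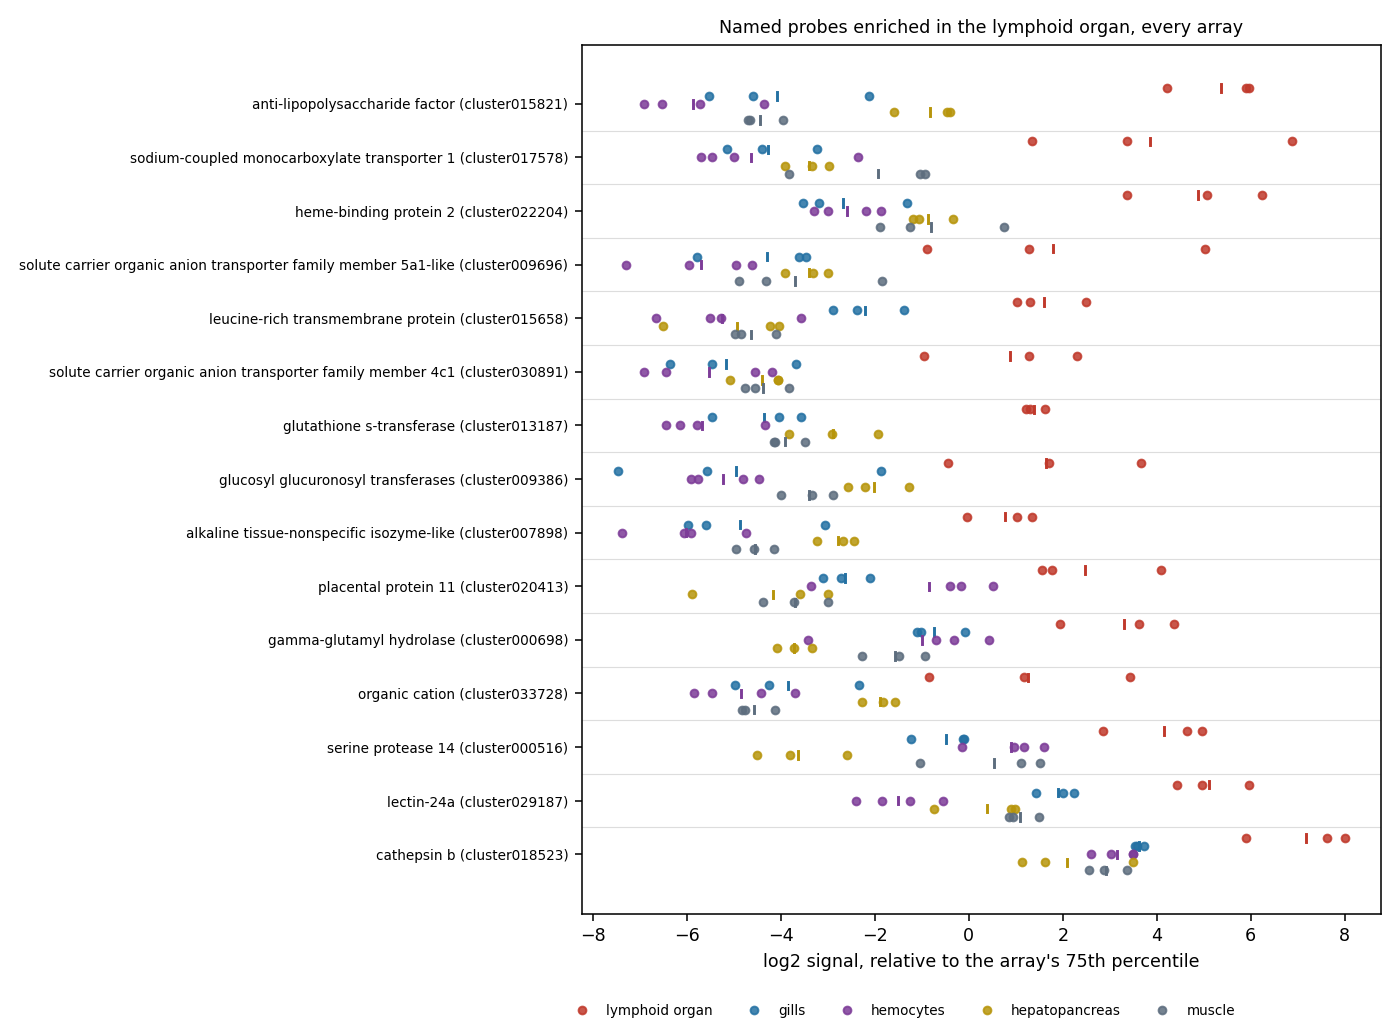
Signals of the 15 enriched named descriptions with the largest excess over their closest tissue, as log2 signal relative to the 75th percentile of the array (horizontal axis). Each point is an array, short bars are tissue means, and colours mark the 5 tissues. In each row all 3 lymphoid organ arrays lie to the right of the 13 others, from the anti-lipopolysaccharide factor (4.22 to 5.97) to cathepsin b (5.91 to 8.00).

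The 75 enriched probes did not vary together among the lymphoid organ arrays. Lymphoid organ 1 gave the highest of the 3 signals at 33 of the enriched probes and the lowest at 33 others. The range over the 3 arrays had a median of 2.02 on the log2 scale and ran from 0.40 to 5.92, and it exceeded 2 at 38 probes. The monocarboxylate, organic anion and organic cation transporter probes among them, like those for heme-binding protein 2 and the glucosyl glucuronosyl transferases, were highest on lymphoid organ 1 and lowest on lymphoid organ 3. Cathepsins, saposins, palmitoyl-protein thioesterase and gamma-glutamyl hydrolase were lowest on lymphoid organ 1. For the monocarboxylate transporter the difference ran from 5.92 to 8.69 over all alternative settings apart from the single-slide fits, and the call held in each. Lymphoid organ 3 was on slide 2 and the other two were on slide 1, and the part of the slide in this split was not tested.

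**Figure D2:**
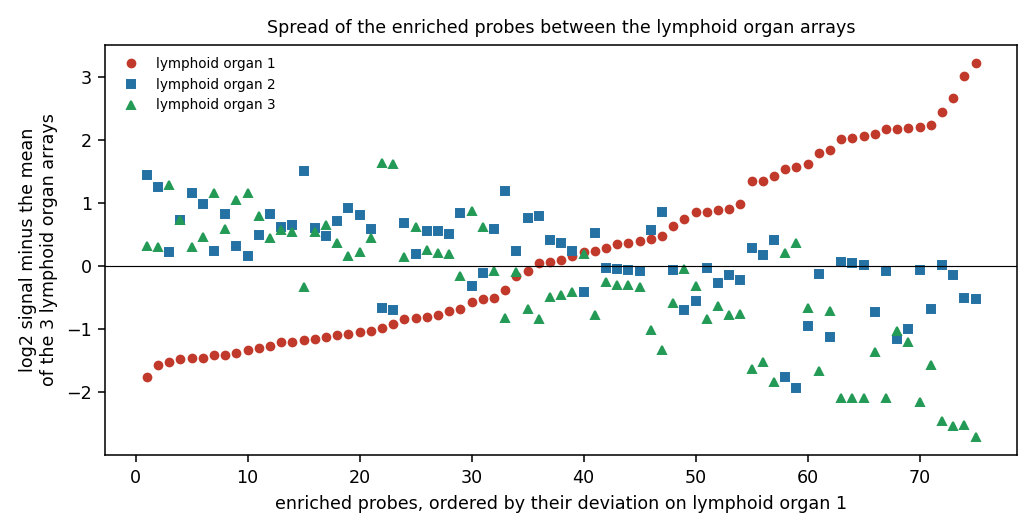
The 75 enriched probes, ordered by their deviation on lymphoid organ 1 (horizontal axis), with the log2 signal of each lymphoid organ array minus the mean of the 3 (vertical axis). The points of lymphoid organ 1 lie on both sides of 0: it is the highest array at 33 probes and the lowest at 33.

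Ranked by level, the lymphoid organ was led by housekeeping transcripts. Probe signals depend on how well each probe hybridises, so the ranking is one of probe brightness and not of transcript number, and saturation flags were not used here. Actin beta subunit (cluster028632) was the brightest named probe at 11.13, 11.06 and 11.47, yet it did not pass the test against the other tissues (difference 0.61, SE 0.34, adjusted p = 0.309). Elongation factor 1-alpha (9.93 ± 0.30, SD, n = 3), heat shock protein 70 (9.75 ± 0.39), ribosomal protein l23a (10.30 ± 0.34) and cytochrome c oxidase subunit i (9.85 ± 0.44) were also among the 20 brightest. None of these passed the test, and 51 of the 100 brightest named descriptions were ribosomal proteins. A further 14 probes that carry actin sequence titles were bright (9.40 to 9.64) and higher by 1.07 to 1.21. They are among the 552 named probes counted above and may measure the same transcript.

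Among the 20 brightest, 4 were higher than in the other tissues. The first was an anti-lipopolysaccharide factor (cluster004705) at 9.75, 9.88 and 10.71, against 7.82 ± 1.75 (SD, n = 3) in gills. Over the mean of the other 4 tissues it was 7.24-fold brighter (2.86, SE 0.59, adjusted p = 0.00605), but 1 gill array reached the lymphoid organ range, and without lymphoid organ 3 the adjusted p was 0.052. Anti-lipopolysaccharide factor 2 read 9.68, 9.82 and 10.22, above all other arrays (2.84, SE 0.58, adjusted p = 0.00605). Cathepsin l (cluster021263), a lysosomal cysteine protease, read 8.57, 10.20 and 10.05 and was 5.54-fold above gills (4.12, SE 0.48, adjusted p = 9.74e-05). The fourth carried the description viral a-type inclusion protein (cluster001267), read 9.73, 9.28 and 10.28 (4.54, SE 0.80, adjusted p = 0.00182) and overlapped gills at 8.88 ± 1.16 (SD, n = 3). Lysozyme (cluster000012), which cleaves bacterial cell walls, was as bright at 8.39, 10.56 and 9.71 and did not pass the test (2.95, adjusted p = 0.122).

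Both rankings covered 5917 named descriptions, those with detection on all lymphoid organ arrays. Of the 100 brightest named descriptions, 14% were called higher at their brightest probe and 2% were called lower, beside 6.46% and 2.85% of all tested probes. These shares are not like for like, since all tested probes include dimmer and unnamed ones. The 100 were also picked by lymphoid organ level, which is part of the difference, and this favours higher calls. Of these 100, 8 were also among the 100 with the largest positive difference, which were dimmer (median level 2.48). Whether 8 is more than unrelated rankings would share was not tested. The 8 were anti-lipopolysaccharide factor, anti-lipopolysaccharide factor like protein, cathepsin l, cathepsin B, viral a-type inclusion protein, the penaeid K9 (cluster015259), calcium-activated chloride channel regulator 1 precursor and a kazal-type serine protease inhibitor-like protein. The description of anti-lipopolysaccharide factor entered the rankings through different probes (cluster004705 by level and cluster015821 by difference), as did cathepsin l and cathepsin B. By their descriptions the 8 include proteins of defence, lysosomal digestion, ion transport and protease inhibition, while viral a-type inclusion protein and K9 fall under none of these.

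**Figure D3:**
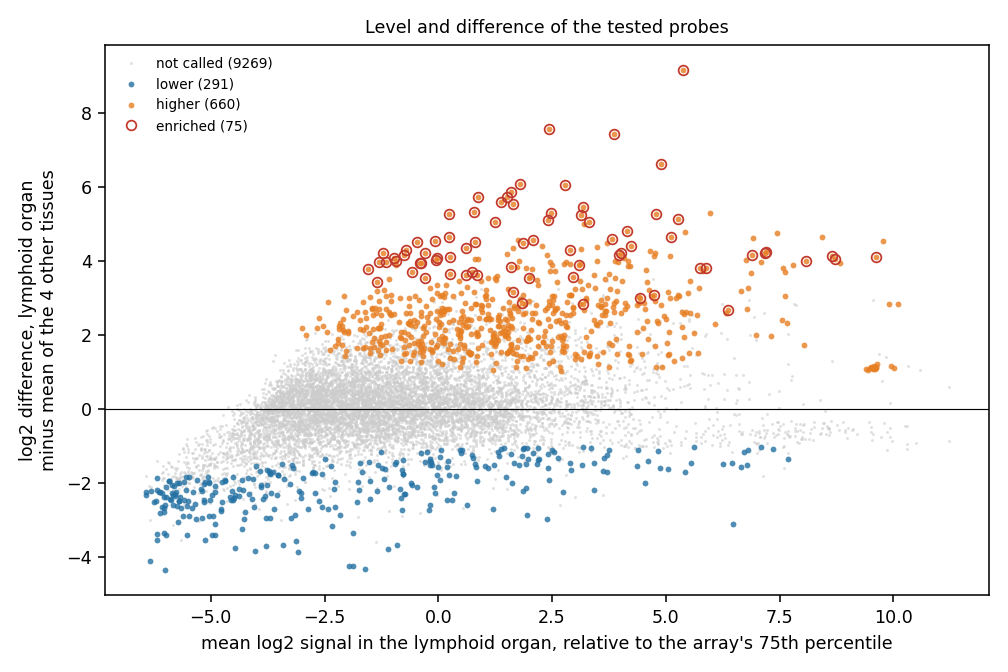
Mean log2 signal in the lymphoid organ (horizontal axis) and log2 difference from the mean of the 4 other tissues (vertical axis) for the 10220 tested probes. Grey points were not called, orange points were higher (660), blue points were lower (291) and red rings mark the 75 enriched probes. The largest difference (9.18) belongs to an anti-lipopolysaccharide factor that lies to the left of the brightest probes.

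Genes were then grouped by words in their descriptions into 24 lists. Over all tested probes the median difference was 0.10, with 6.46% higher and 2.85% lower, and each list is read against these values. At an unadjusted p below 0.05 and 2-fold, limma gave 1324 probes higher and 748 lower. Counts against single tissues have their own background. Of all tested probes 4.34% were higher and 4.87% lower than in gills, 14.7% and 6.74% than in hemocytes, 14.9% and 10.2% than in hepatopancreas, and 16.3% and 15.5% than in muscle. Probes of the same description can measure the same or similar transcripts, so counts are of probes.

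Antimicrobial peptides and lysozymes counted 37 tested probes, of which 9 were higher and 2 were lower (median 0.69, 0.86 with slide blocked, 0.22 on slide 1 alone, 1.27 on slide 2 alone). All 9 higher probes were anti-lipopolysaccharide factors, a family with 12 tested probes. At cluster003064 the arrays read 4.75, 1.24 and 3.54, 16.9-fold above hemocytes, the closest tissue (5.47, SE 1.0, adjusted p = 0.00339). At cluster035609 they read 9.83, 8.43 and 8.19, which did not stand apart from hemocytes (1.03-fold), although the probe was 15.6-fold over the 4-tissue mean (3.96, SE 0.43, adjusted p = 5.58e-05). So some anti-lipopolysaccharide factor probes were bright in lymphoid organ alone, and others were bright in hemocytes or gills as well. The 2 lower probes were both crustin p, a cysteine-rich antimicrobial peptide, at -2.59 (cluster014337, adjusted p = 0.0407) and -2.50 (cluster033315, adjusted p = 0.0172). In limma none of the 18 crustin probes was higher, and 0 were at an unadjusted p below 0.05. Without lymphoid organ 1, 2 or 3 the higher probes of the list numbered 7, 7 and 8, and the lower 0, 0 and 3. With slide blocked, or without gills 2, hemocytes 1 or 2, hepatopancreas 1 or 3 or muscle 3, 1 lower probe was left.

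C-type lectins, calcium-dependent sugar-binding proteins that recognise microbes, went both ways. Of 55 tested probes 9 were higher and 3 were lower, and the median was -0.14 (slide blocked -0.24, slide 1 alone -0.83, slide 2 alone 0.61). At cluster012612 the lymphoid organ read 4.17, 4.26 and 3.61, against 1.94 ± 0.60 (SD, n = 4) in hemocytes, 4.2-fold lower, and the groups did not overlap (4.22, SE 0.52, adjusted p = 0.000123). The neighbouring cluster012611 gave nearly the same values (4.07, 4.35 and 3.51). A c-type lectin that was detected in no other tissue (cluster025166) read -2.39, -0.73 and 0.19 (4.10, SE 0.73, adjusted p = 0.00189), at least 2.95-fold above muscle. It too entered the test only through the lymphoid organ. In the other direction, the gill lectin of cluster014911 was undetected on all lymphoid organ arrays and at least 3476-fold lower there than in gills (fitted difference from the mean of the 4 tissues -3.40, SE 0.55, adjusted p = 0.000901). Against hepatopancreas alone the list stood lower, with a median of -4.71 and 32 of 55 probes lower (10.2% of all tested) against 9 higher. Against hemocytes it stood higher, with a median of 2.40 and 24 probes higher (14.7% of all tested). The 3 lower calls became 1 without lymphoid organ 1 or 2, hemocytes 4, hepatopancreas 1 or 3, or muscle 1 or 3, and 5 without gills 2 or hemocytes 3.

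Other pattern recognition proteins, which include fibrinogen-related proteins and ficolins that bind sugars on microbes, had 10 higher and 1 lower of 48 tested (median 0.44, 0.41 with slide blocked, -0.24 on slide 1 alone, 1.05 on slide 2 alone). Fibrinogen-like protein 1-like (cluster012934) read 1.67, 3.27 and 3.44, against -0.20 ± 1.10 (SD, n = 3) in gills, and was undetected in hepatopancreas and muscle (6.06, SE 0.64, adjusted p = 4.69e-05). Lectin-24a (cluster029187), named for a C-type lectin of Drosophila, read 4.43, 5.96 and 4.96 and was 9.37-fold above gills (4.65, SE 0.45, adjusted p = 2.39e-05). Both stood above all 13 other arrays. Of 9 tested fibrinogen-domain and ficolin probes, limma called 6 higher and none lower, and 1 was lower at an unadjusted p below 0.05. They include fibrinogen c domain-containing protein 1 (cluster032498), which no other tissue gave a detected signal for, at -2.17, 0.07 and -0.18 (4.18, SE 0.58, adjusted p = 0.000357, with a compromised spot dropped and 2 muscle arrays used). That probe too entered the test only through the lymphoid organ. Ficolin 1-like (cluster025296), at 4.95, 3.44 and 0.98, lost its call without lymphoid organ 1 (adjusted p = 0.124) or 2 (0.0775). Without lymphoid organ 1, 2 or 3 the list had 7, 10 and 9 higher probes and 0 lower in each case.

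The list of scavenger and engulfment receptors, in which most of the higher probes were integrins, gave the largest upward shift of the 24 lists. Of 43 tested scavenger and engulfment receptor probes 18 were higher (41.9% against 6.46% of all tested), with a median of 1.42 (1.24 with slide blocked, 1.18 on slide 1 alone, 1.51 on slide 2 alone). In limma no probe was lower, and 0 were lower at an unadjusted p below 0.05. On lymphoid organ arrays 1, 2 and 3 the list's median, centred on the mean of the 5 tissues, was 1.33, 1.32 and 0.95, and it was 0.41 or lower on each of the other arrays. The list's median was 1.35 above gills, 0.90 above hemocytes, 2.22 above hepatopancreas and 2.09 above muscle. Against hemocytes 18 of the 43 probes were higher and 9 lower, beside 14.7 and 6.74% of all tested. Higher and lower were 7 and 2 against gills, 23 and 2 against hepatopancreas and 21 and 1 against muscle. Summed over the list's 57 probes, the signal was 160.4 to 171.6 in lymphoid organ. It was 312.9 to 430.8 in hemocytes, 209.8 to 551.1 in hepatopancreas, 70.3 to 86.1 in gills and 44.2 to 49.1 in muscle. With lymphoid organ 1, 2 or 3 left out in turn the higher probes numbered 11, 6 and 12.

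Integrins, the adhesion receptors through which cells hold to matrix and to particles, supplied 10 of these 18 probes. Integrin alpha-5 (cluster000475) read 5.14, 4.74 and 4.50, against 2.16 ± 1.46 (SD, n = 4) in hemocytes and 1.17 ± 2.17 (SD, n = 3) in gills, and no other array reached the lymphoid organ range. The signal was 6.19-fold that of hemocytes, the closest tissue, and its bound against the 4-tissue mean was at least 33.4-fold (5.29, SE 0.76, adjusted p = 0.000358). At cluster000480 the same description read 2.71, 1.73 and 2.38 (4.41, SE 0.85, adjusted p = 0.00366). Integrin beta subunit (cluster023016) read 3.60, 4.82 and 3.85, a level it shared with hemocytes (mean 4.34), and passed the test against the 4-tissue mean (2.89, SE 0.40, adjusted p = 0.000249).

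Scavenger receptors, which bind modified lipids and microbial surfaces, were shared with hemocytes in the same way. Scavenger receptor protein sr2 (cluster036263) read 2.78, 2.29 and 4.29 in lymphoid organ and 3.07 ± 1.04 (SD, n = 4) in hemocytes, and was lower elsewhere (3.46, SE 0.57, adjusted p = 0.00105). The class B scavenger receptor of croquemort type, named for a Drosophila receptor for dead cells, read 0.12, 0.91 and 0.27, with a hemocyte mean of 0.23 (2.05, adjusted p = 0.0126). Low density lipoprotein receptor (cluster004652) was different, at -0.67, 0.82 and 0.13 above all 13 other arrays (3.08, SE 0.65, adjusted p = 0.00685). Of 14 tested low-density lipoprotein receptor probes 4 were higher.

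Endocytosis and vesicle traffic, the machinery that carries bound cargo inward, did not share this shift against the 4-tissue mean. Of 77 tested probes 2 were higher (2.60%) and 1 was lower, with a median of 0.30 (0.33 with slide blocked, 0.47 on slide 1 alone, 0.23 on slide 2 alone). The median was 0.09 against gills, -0.43 against hemocytes, 0.96 against hepatopancreas and 0.53 against muscle. Higher than in hepatopancreas were 31 probes (14.9% of all tested) and lower 1. Against muscle 20 were higher (16.3% of all tested) and 4 lower, and against hemocytes 2 were higher and 6 lower (6.74% of all tested). Rab6ip1-like protein (cluster008751) read 1.05, 1.96 and 0.82, close to hemocytes at 0.76 ± 0.28 (SD, n = 4) (1.96, SE 0.36, adjusted p = 0.00264). Rab11 family-interacting protein 4a-like isoform 2 (cluster032259) differed by 1.11 (adjusted p = 0.0472) and lost its call under 17 alternative settings. Vacuolar protein sorting-associated protein ypr157w-like (cluster009762) was undetected in all tissues but hepatopancreas, where it was at least 131-fold above the lymphoid organ (difference from the mean of the 4 tissues -2.64, adjusted p = 0.013), and the call ended without lymphoid organ 1 (adjusted p = 0.0986) or 2 (0.0516).

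Lysosomal proteins split by member. Of 88 tested probes 21 were higher and 5 were lower, 11 were enriched, and the median was only 0.18 (0.04 with slide blocked, -0.14 on slide 1 alone, 0.59 on slide 2 alone, -0.04 with median scaling). The list was higher than in gills, hemocytes and muscle at 18, 27 and 26 of its probes, against 4.34, 14.7 and 16.3% of all tested. It was lower than in hepatopancreas at 37 probes and higher at 25, against 10.2 and 14.9% of all tested. The 21 higher probes became 20, 15 and 13 without lymphoid organ 1, 2 or 3. The 5 lower probes became 2 without any 1 of these arrays and 9 without hepatopancreas 4.

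The largest differences in the list belonged to the cysteine proteases cathepsin B and cathepsin L. Cathepsin b (cluster018523) read 5.91, 8.00 and 7.63, against 3.62 ± 0.09 (SD, n = 3) in gills and 3.16 ± 0.43 (SD, n = 4) in hemocytes, an excess of 11.8-fold over gills (4.23, SE 0.46, adjusted p = 5.58e-05). Its lowest lymphoid organ array was lymphoid organ 1, and that array was still above all 13 others. Cathepsin l at cluster021184 read 7.57, 9.38 and 9.03 (4.16, SE 0.51, adjusted p = 0.000123) and at cluster021274 read 6.07, 7.09 and 7.52 (4.18, SE 0.49, adjusted p = 9.63e-05). Of 4 tested cathepsin B probes 3 were enriched, and of 5 cathepsin L probes 4 were. The difference of cathepsin b was 4.25 on slide 1 alone and 4.62 on slide 2 alone.

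Other members of the list were also higher. Palmitoyl-protein thioesterase 1 (cluster021468), which removes fatty acids from proteins, read 4.43, 6.87 and 6.34 (3.81, SE 0.47, adjusted p = 0.000123). Saposin-related protein (cluster029213), of a family that presents sphingolipids to their hydrolases, read 3.66, 4.99 and 4.65 (3.02, SE 0.49, adjusted p = 0.000862). Each was above all other arrays. Of 3 palmitoyl-protein thioesterase probes 2 were higher, and both saposin probes were. Gamma-glutamyl hydrolase (cluster000697), a lysosomal enzyme that trims folate polyglutamates and was not in the list, read 3.96, 5.43 and 6.44 which was 11.6-fold the hemocyte signal (5.16, SE 0.61, adjusted p = 9.83e-05). Of its 3 tested probes 2 were higher. Lysosomal pro-x carboxypeptidase-like (cluster031257) read 1.22, 2.50 and 3.63 (3.99, SE 0.50, adjusted p = 0.000123).

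Further lysosomal members went both ways. Cathepsin C, an aminopeptidase, had 14 tested probes with 2 higher, 1 lower and a median difference of -0.99. The median signal of these 14 probes was -2.83 in lymphoid organ, 4.42 in hepatopancreas, -5.13 in gills, -4.84 in hemocytes and -3.21 in muscle. The 2 higher ones, cathepsin C (1.98, 2.48 and 3.02) and cathepsin c (cluster004717), at 1.25, 1.83 and 2.10, stood beside hemocyte means of 2.02 and 0.53. Gamma-interferon-inducible lysosomal thiol reductase precursor (cluster034647), which reduces disulfide bonds in the lysosome, read -3.98, -2.46 and -2.79 and was 609-fold lower than in gills (difference from the mean of the 4 tissues -3.85, SE 0.48, adjusted p = 0.000123). A second probe described as that enzyme (cluster021234) was higher by 1.71 (adjusted p = 0.0495).

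**Figure D4:**
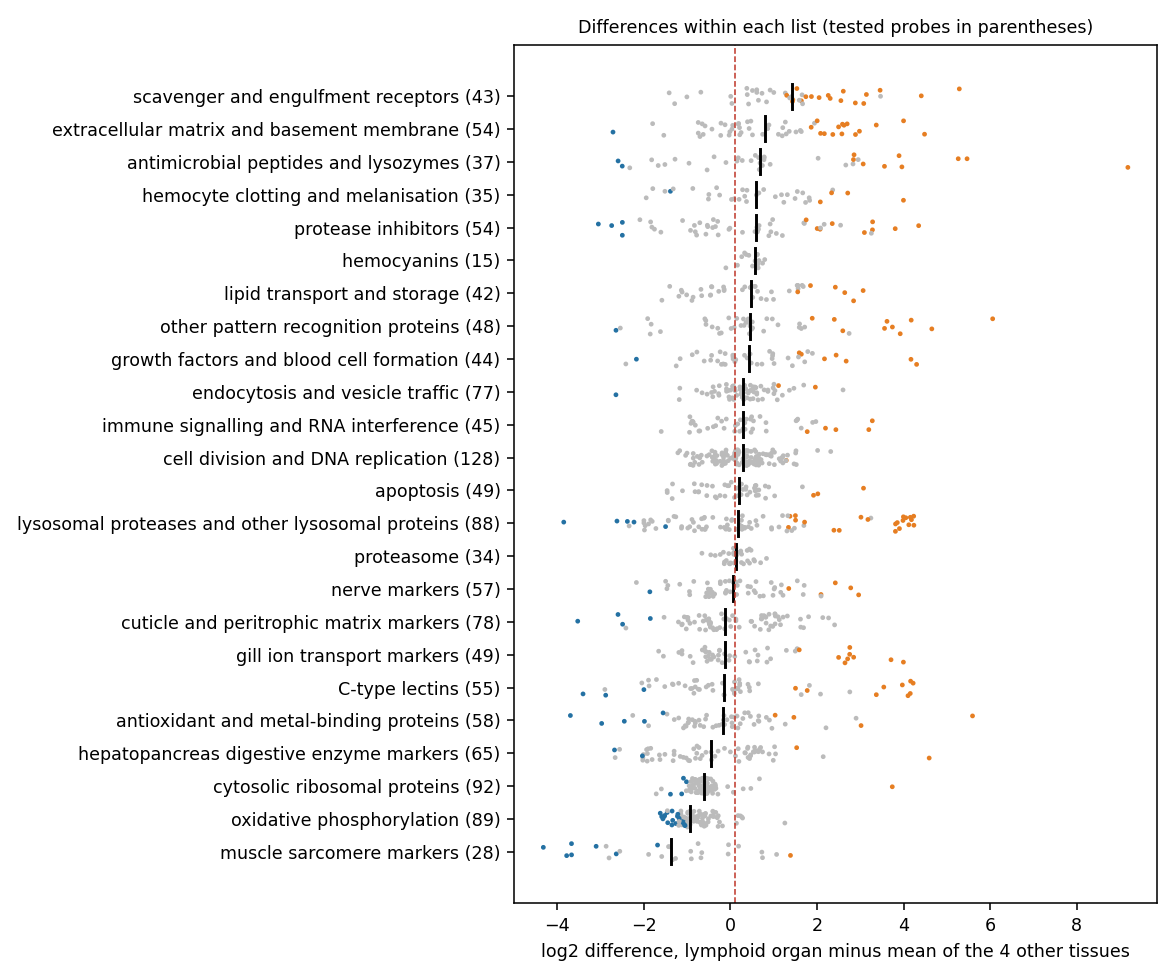
Log2 difference between lymphoid organ and the mean of the 4 other tissues (horizontal axis) for the tested probes of 24 lists (rows, number of tested probes in parentheses). Orange points were called higher, blue points lower and grey points neither, black bars are list medians and the dashed line is the median of all tested probes (0.10). Scavenger and engulfment receptors have the highest median (1.42) and muscle sarcomere markers the lowest (-1.37).

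Clotting and melanisation proteins of hemocytes had 4 higher and 1 lower of 35 tested (median 0.60, 0.46 with slide blocked, 0.80 on slide 1 alone, 0.01 on slide 2 alone). Against hemocytes the list's median was -2.09, with 15 probes lower and 6 higher, beside 6.74% lower and 14.7% higher of all tested. Against gills 8 probes were lower, although the median was 0.35. In limma no probe of the list was higher than in gills, against 1 at an unadjusted p below 0.05. Against hepatopancreas and muscle the medians were 3.38 and 2.60, with 21 probes higher in each case. Hemocyte transglutaminase, which crosslinks the clot, read 6.36, 4.60 and 4.27 in lymphoid organ and 8.20 ± 0.77 (SD, n = 4) in hemocytes (2.08, SE 0.53, adjusted p = 0.023, lost without lymphoid organ 1, adjusted p = 0.192, or 2, 0.0585). Clottable protein (cluster001162), the clot's substrate, read -1.32, 1.51 and 0.55 and was undetected in hemocytes, with gills at 2.67 ± 0.19 (SD, n = 3) (2.71, SE 0.53, adjusted p = 0.00436, lost without lymphoid organ 2, 0.0626). Another probe described as clottable protein was brighter in lymphoid organ, at a mean of 8.65, and was not among the list's 4 higher probes. In limma none of 10 tested probes for prophenoloxidase, the enzyme of melanisation, was called, and 0 were at an unadjusted p below 0.05. Without lymphoid organ 1 or 2 the higher probes numbered 2 in each case, and without lymphoid organ 3 they numbered 6. The lower call was lost without any 1 of these arrays and with slide blocked.

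Protease inhibitors, which restrain clotting and melanisation cascades, had 9 higher and 4 lower of 54 tested (median 0.59, 0.48 with slide blocked, 0.63 on slide 1 alone, 0.13 on slide 2 alone). Alpha 2 macroglobulin (cluster006520), a broad protease trap, read 2.96, 4.18 and 3.19 above all other arrays (3.29, SE 0.57, adjusted p = 0.00164). A serine proteinase inhibitor (cluster009097) read 2.42, 2.44 and 0.09, a level it shared with gills at 0.89 ± 1.00 (SD, n = 3) (4.35, SE 0.53, adjusted p = 0.000123). By contrast alpha 2-macroglobulin at cluster015598 was lower (-2.49, adjusted p = 0.00665), with gills at a mean of 3.70. The list's higher probes numbered 4, 4 and 5 without lymphoid organ 1, 2 or 3, and its lower probes 0, 1 and 3.

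Immune signalling and RNA interference proteins had 5 higher of 45 tested (median 0.29, 0.18 with slide blocked, -0.12 on slide 1 alone, 0.51 on slide 2 alone). In limma none was lower, against 3 at an unadjusted p below 0.05. Spaetzle is the ligand of the Toll receptor, which in Drosophila switches on antimicrobial peptide genes. Protein spaetzle (cluster036700) read 0.94, 1.71 and 1.74 (2.44, SE 0.62, adjusted p = 0.0212) and spatzle protein (cluster033998) read 0.72, -0.03 and -1.25 (3.28, SE 0.91, adjusted p = 0.0334). Each call ended without any 1 lymphoid organ array, with adjusted p of 0.0546 to 0.107 for the former and 0.0593 to 0.172 for the latter. Toll receptor 2 read 3.92, 5.75 and 3.83, near gills at 4.22 ± 0.23 (SD, n = 3) (2.20, adjusted p = 0.00656, and 0.0837 without lymphoid organ 2). Tumor necrosis factor induced protein (cluster018066) read 6.33, 6.88 and 6.76, a level reached also in hemocytes at 6.97 ± 0.59 (SD, n = 4) (3.20, SE 0.43, adjusted p = 0.000208). The list's 5 higher probes became 2, 1 and 2 without lymphoid organ 1, 2 or 3.

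Growth factors and blood cell formation had 7 higher and 1 lower of 44 tested (median 0.42, 0.34 with slide blocked, 0.12 on slide 1 alone, 0.63 on slide 2 alone). Vascular endothelial growth factor a (cluster017868), a factor that in vertebrates drives the growth of blood vessels, read 3.53, 2.84 and 2.32 and was 7.32-fold above gills (4.30, SE 0.51, adjusted p = 9.83e-05). Protein wnt-5b-like (cluster011639), a secreted signal of cell polarity, read 1.91, 2.47 and 2.78, was undetected in hemocytes and was 3.23-fold above gills (4.17, SE 0.49, adjusted p = 9.63e-05). In both, the 3 arrays lay above all others. Of 10 tested vascular endothelial growth factor probes 3 were higher, and vascular endothelial growth factor receptor 1-like (cluster032232) was a hemocyte-bright probe (lymphoid organ 0.80, 0.26 and 0.27, hemocyte mean 2.23). Without lymphoid organ 1, 2 or 3 the list's higher probes numbered 4, 5 and 4, and its lower call was lost in each case. Median scaling gave 4 higher.

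Extracellular matrix and basement membrane proteins, which line arteries and hold cells in place, had 15 higher and 1 lower of 54 tested (27.8% higher), with a median of 0.80 (0.74 with slide blocked, 0.77 on slide 1 alone, 1.17 on slide 2 alone). The difference was widest against hemocytes, with a median of 2.41 and 27 of 54 probes higher (14.7% of all tested). Against hepatopancreas and muscle the medians were -0.06 and 0.19. Basement membrane-specific heparan sulfate proteoglycan core protein (cluster017999), the perlecan of basement membranes, read 3.69, 4.21 and 3.76, above all other arrays, with muscle closest at 2.73 ± 0.52 (SD, n = 3) (4.00, SE 0.54, adjusted p = 0.000199). Papilin (cluster034151), a matrix protein, read 0.07, 0.20 and 0.20, with muscle at -1.16 ± 1.60 (SD, n = 3) overlapping it (3.37, SE 0.63, adjusted p = 0.00273). Fasciclin-3 (cluster030445), a cell adhesion protein, read 0.10, 3.30 and 2.18 and was 8.15-fold above gills (4.48, SE 0.66, adjusted p = 0.000433). Of 6 laminin probes 3 were higher and of 14 collagen probes 1 was. Leaving out lymphoid organ 1, 2 or 3 gave 8, 7 and 8 higher probes, and the lower call was lost without lymphoid organ 1.

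Oxidative phosphorylation, the mitochondrial chain that makes ATP, was the list with the most lower probes. Of 89 tested 20 were lower (22.5% against 2.85% of all tested), with a median of -0.93 (-0.95 with slide blocked, -0.99 on slide 1 alone, -0.99 on slide 2 alone). In limma no probe was higher, and 0 were higher at an unadjusted p below 0.05. The list's centred median was -0.67, -0.74 and -0.73 on lymphoid organ arrays 1, 2 and 3, below all 13 other arrays, which ran from -0.49 (hemocytes 3) to 1.46 (muscle 3). The median difference was -0.73 against gills, -0.56 against hemocytes, -0.47 against hepatopancreas and -1.88 against muscle. Against single tissues 62 of the 89 probes were lower than in muscle (15.5% of all tested). Lower than in gills was 1 (4.87% of all tested), 3 were lower than in hemocytes (6.74%) and 5 than in hepatopancreas (10.2%).

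F1F0-ATP synthase beta subunit, the catalytic part of the ATP-making enzyme, read 6.87, 6.73 and 6.35, below all other arrays, with gills at 7.76 ± 0.69 (SD, n = 3) and muscle at 9.46 ± 0.64 (SD, n = 3) (-1.56, SE 0.36, adjusted p = 0.0118, but 0.224 with quantile normalization and 0.0533 and 0.0818 without lymphoid organ 2 or 3). Cytochrome c oxidase subunit iv (cluster003729), of the complex that reduces oxygen, read 4.95, 4.41 and 3.76, also below all others (-1.52, SE 0.33, adjusted p = 0.00778). Of 33 NADH dehydrogenase probes 6 were lower, of 32 ATP synthase probes 6, and of 19 cytochrome c oxidase probes 4. The median kept its sign under every scaling, at -0.89 with common-probe scaling, -1.14 with median scaling and -0.55 with quantile normalization, while the number of lower probes was 18, 31 and 3. The number was 6, 1 and 1 without lymphoid organ 1, 2 or 3, and 11 to 13 without gills 2, hemocytes 2, hemocytes 4, hepatopancreas 3 or muscle 3.

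**Figure D5:**
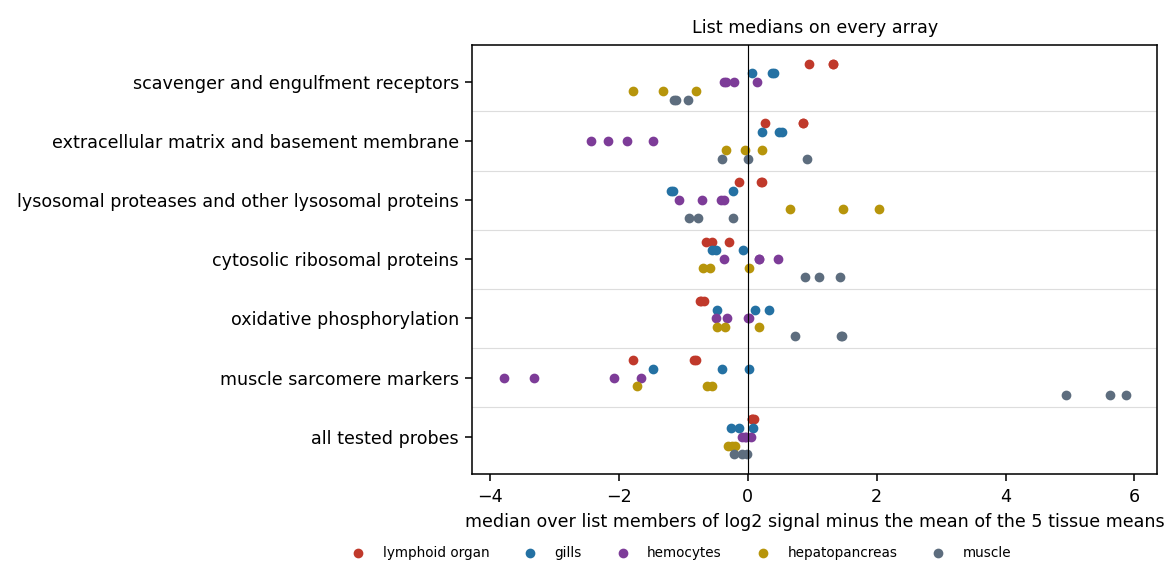
Median over the tested members of a list of log2 signal minus the mean of the 5 tissue means (horizontal axis), for 6 lists and for all tested probes (rows). Each point is an array and colours mark the tissues. The lymphoid organ arrays are the highest for scavenger and engulfment receptors (0.95 to 1.33) and the lowest for oxidative phosphorylation (-0.74 to -0.67).

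Cytosolic ribosomal proteins had a median of -0.62 over 92 tested probes (-0.62 with slide blocked, -0.78 on slide 1 alone, -0.44 on slide 2 alone), which became 0.13 with quantile normalization. Only 4 were lower and 1 was higher. With quantile normalization limma called none lower, and 1 was lower at an unadjusted p below 0.05. Against muscle 83 of the 92 probes were lower (15.5% of all tested), and against the other tissues 3 at most, beside 4.87 to 10.2% of all tested. Ribosomal protein l5 (cluster023010) read 5.18, 4.30 and 4.36 (-1.38, SE 0.28, adjusted p = 0.00605, but 0.171 with quantile normalization and 0.0585 and 0.0512 without lymphoid organ 2 or 3), with muscle at 7.71 ± 0.33 (SD, n = 3). Without lymphoid organ 1, 2 or 3 the lower probes numbered 2, 0 and 0, and without hemocytes 2 or muscle 3 they numbered 2. Proteasome subunits gave no call in limma in 34 tested probes (median 0.12), and 0 were at an unadjusted p below 0.05. Cell division and DNA replication gave 1 higher in 128 (median 0.29), and this call was lost without any 1 lymphoid organ array.

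Antioxidant and metal-binding proteins had 4 higher and 5 lower of 58 tested (median -0.18, -0.28 with slide blocked, -0.35 on slide 1 alone, -0.27 on slide 2 alone). The lower ones were chloroplast copper zinc-superoxide dismutase (cluster032149, -3.69), glutathione s-transferase (cluster006779, -2.97), peroxiredoxin 3 (cluster014093, -2.45), ferritin (cluster033938, -1.98) and mitochondrial manganese superoxide dismutase (cluster031171, -1.55). Peroxiredoxin 3 and manganese superoxide dismutase remove peroxide and superoxide inside mitochondria, and both were brightest in muscle. Peroxiredoxin 3 read 0.83, -0.14 and -0.09, with muscle at a mean of 4.97 (SE 0.38, adjusted p = 0.000653). Ferritin, which stores iron, read 2.06, 1.13 and 1.69, with hepatopancreas at a mean of 6.04 (SE 0.41, adjusted p = 0.00617). The higher probes became 2, 1 and 2 without lymphoid organ 1, 2 or 3, and the lower became 2 without lymphoid organ 2. The call of glutathione s-transferase at cluster006779 was lost without lymphoid organ 1 (adjusted p = 0.234) or 2 (0.145).

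Lipid transport and storage had 6 higher of 42 tested (median 0.48), 3 of them apolipoprotein d, a small lipid carrier. In limma none was lower, against 1 at an unadjusted p below 0.05. These calls were fragile: none was left without lymphoid organ 2 or 3, and 2 were left without lymphoid organ 1. They numbered 3 without gills 1 or hepatopancreas 1. Apoptosis proteins had 3 higher of 49 tested (median 0.21), all initiator-type caspases by description that were also bright in hemocytes. Caspase-2 (cluster030415) read 2.60, 2.92 and 2.01, with hemocytes at 2.46 ± 0.87 (SD, n = 4) (3.08, SE 0.55, adjusted p = 0.00189). Without lymphoid organ 1 or 2 the list had 1 higher probe. A further 268 tested caspase probes with isolate titles were kept out of the list. Of these limma called 0, against 2 at an unadjusted p below 0.05, and their median signal was -3.61 in lymphoid organ and -0.45 in hemocytes. The 15 hemocyanin probes gave no call in limma (median 0.57), and 0 were at an unadjusted p below 0.05. Against single tissues, 14 of them were lower than in hepatopancreas (10.2% of all tested), with a median of -8.49, and 14 were higher than in hemocytes (14.7%).

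Markers of other tissues were next. Muscle sarcomere markers had 7 lower and 1 higher of 28 tested (median -1.37, -1.52 with slide blocked, -1.69 on slide 1 alone, -0.82 on slide 2 alone), and 4, 4 and 6 lower without lymphoid organ 1, 2 or 3. Of the 28 probes 21 were lower than in muscle (15.5% of all tested), 2 than in gills, 2 than in hemocytes and 4 than in hepatopancreas. Higher than in hemocytes were 9 (14.7% of all tested), and 5 were higher than in hepatopancreas, a share near the 14.9% of all tested. Troponin i (cluster019456), the inhibitory subunit of the thin filament, read -2.13, -1.01 and -0.18 and was 11850-fold lower than in muscle (12.43 ± 0.36, SD, n = 3) but above hemocytes. Arginine kinase (cluster020823), which buffers ATP, read 6.92, 6.13 and 6.38, below all 13 other arrays (-3.10, SE 0.38, adjusted p = 0.000123). Cuticle and peritrophic matrix markers had 4 lower of 78 tested (median -0.13), and 1, 2 and 2 without lymphoid organ 1, 2 or 3. Digestive enzyme markers had 2 higher and 2 lower of 65 (median -0.45), and all 4 were chitinases. Without any 1 lymphoid organ array 1 higher probe was left, the lower probes numbered 0, 1 and 2 without lymphoid organ 1, 2 or 3, and they numbered 6 without hepatopancreas 4. Acidic mammalian chitinase (cluster006560), which cleaves chitin, read 2.31, 4.05 and 5.10 or 7.17-fold the hemocyte signal (4.59, SE 0.56, adjusted p = 0.000123).

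Gill ion transport markers gave 9 higher probes of 49 tested (18.4%), beside a median of -0.13. In limma none was lower, against 5 at an unadjusted p below 0.05. Of these, 6 were epithelial chloride channels or their regulator, of 12 such probes tested. Calcium-activated chloride channel regulator 1 precursor (cluster036666) read 7.22, 8.12 and 7.49, the same range as gills at 7.66 ± 0.25 (SD, n = 3), and was at -0.10 ± 0.68 (SD, n = 4) in hemocytes (3.71, SE 0.56, adjusted p = 0.000617). Epithelial chloride channel (cluster028060) read 2.15, 1.41 and 1.78 and was shared with muscle at 1.48 ± 1.09 (SD, n = 3) (4.00, SE 0.58, adjusted p = 0.000373). The list's higher probes numbered 5, 3 and 7 without lymphoid organ 1, 2 or 3. Nerve markers had 5 higher and 1 lower of 57 (median 0.07, -0.14 with median scaling), and 1, 2 and 1 higher and 0 lower without lymphoid organ 1, 2 or 3.

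Among the 291 lower probes the brightest tissue was muscle for 166, gills for 69, hepatopancreas for 50 and hemocytes for 6. Only 2 were at least 4-fold below each other tissue, both described as venom carboxylesterase-6-like, an ester-cleaving enzyme by its description. At cluster011428 the lymphoid organ read -1.56, -2.31 and -2.00, against 1.84 ± 0.66 (SD, n = 3) in muscle and 3.25 ± 0.30 (SD, n = 3) in hepatopancreas (-4.23, SE 0.42, adjusted p = 2.71e-05). None of the 13 other arrays fell into the lymphoid organ range, and the differences on slides 1 and 2 alone were -4.24 and -4.24. Pyruvate kinase (cluster016488), the last enzyme of glycolysis, was instead a muscle probe: it read -1.55, -1.73 and -2.34, 10150-fold below muscle (-3.33, SE 0.50, adjusted p = 0.00056), and overlapped gills and hemocytes.

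Several of the lowest probes were undetected in the lymphoid organ and bright in 1 tissue. Phosphoenolpyruvate carboxykinase (cluster018997), of glucose synthesis, was detected in gills alone and was at least 413-fold lower in lymphoid organ (-3.33, SE 0.61, adjusted p = 0.0024). Chorion peroxidase (cluster033162) was at least 189-fold below gills (-3.37, SE 0.58, adjusted p = 0.00145), and facilitated trehalose transporter tret1-like (cluster035272) at least 68.4-fold below muscle. The last of these calls ended without any 1 lymphoid organ array (adjusted p 0.0812 to 0.13). The probe with the largest fitted difference, d-beta-hydroxybutyrate mitochondrial-like (cluster028721), was undetected in lymphoid organ and hemocytes alike and at least 71.7-fold below hepatopancreas. Its call (-4.35, SE 1.2, adjusted p = 0.0343) also ended without any 1 lymphoid organ array (0.0924 to 0.166) and against the mean of the 13 other arrays (0.0517). Troponin i at cluster019457 (-4.32, adjusted p = 0.0205, but 0.182 and 0.0927 without lymphoid organ 1 or 2) had 2 usable lymphoid organ arrays, since a compromised spot was dropped on the third.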

How the data were processed

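Signals of 16 single-colour arrays were analysed (3 lymphoid organ, 3 gills, 4 hemocytes, 3 hepatopancreas, 3 muscle). Processed signal intensities, in linear units, and detection flags were made with Agilent Feature Extraction 10.7.3.1, per the submitters' processing notes and the file headers. The deposited series matrix holds log2 values, and these differed by at most 0.00118 from log2 of the deposited intensity over the 75th percentile of the array, with column medians of -2.70 to -2.02. Build and probe sequences were not used here.

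Signals were divided by the 75th percentile of the array's 13875 non-control probes and log2-transformed, and the 175 compromised spots were set to missing. Of 13349 non-control, non-virus probes, the 10220 with a detected signal on all usable arrays of some tissue were tested. limma 3.58.1 in R 4.3.3 fitted 5 tissue means with a trended prior (11 residual and 5.38 median prior degrees of freedom), and was tested on simulated data. The Benjamini-Hochberg adjustment was made over all tested probes of a contrast. Named probes were the 20 brightest, the 20 highest and 15 lowest called, the 15 enriched with the largest excess, and up to 4 called members per list. Families such as the anti-lipopolysaccharide factors, and further members named for a family, were picked after values were seen. The lists were matched by words in the descriptions, and 283 probes with isolate titles (269 caspase, 14 actin) were kept out. The members and lists were chosen with earlier results of these data known. Alternatives were other scalings, filters, weights, priors, blocks and references, and each array left out. Control and virus probes were left out by the rule of the comparison.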

Additional observations from a re-analysis of the deposited data

Results flagged for a closer look

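Hemocytes were the only tissue with 4 arrays, so only they were checked for a single array far from the rest, over 132 named probes. At 4 of them 1 hemocyte array stood far from the other 3, and chance flags about 1 in 20 groups. Ficolin 1-like (cluster025296) read 2.52 on hemocytes 4 and -2.56 to -1.90 on the others. Caspase apoptosis-related cysteine peptidase (cluster027429) read 2.93 on hemocytes 3 and 1.15 to 1.44 on the others. Hemocyte protein-glutamine gamma-glutamyltransferase (cluster013341) read -6.71 on hemocytes 2 against -4.79 to -4.48, and long form-like (cluster007590) read -6.41 on hemocytes 3 against -4.29 to -4.12, in both cases at signals where most hemocyte arrays gave no detection.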

How the results depend on the processing

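No named call changed direction under any setting. Of 116 called named probes, 113 kept their call with slide as a block, 109 with median scaling, 110 with quantile normalization and 104 against the mean of the 13 other arrays, but 82, 73 and 87 without lymphoid organ 1, 2 or 3. Counts over all tested probes are given as percentages of the probes tested, where the main values were 6.46% higher, 2.85% lower and 0.734% enriched. Array weights gave 11.3% higher and 6.38% lower. Median scaling gave 4.62% lower and quantile normalization 5.11% lower. With 1 probe per description 0.401% were enriched. At a threshold of 4-fold in place of 2-fold, 1.47% of all tested probes were lower. Over the arrays left out in turn, the higher share ran from 3.12 to 7.03%, the lower from 0.636 to 4.01% and the enriched from 0.450 to 0.763%. Within slide 1 the shares were 1.05, 0.2055 and 0%, and within slide 2 they were 0.00985, 0 and 0.0197%, where fewer arrays enter each fit. Replicate numbers were also fitted as a block, which gave 610 higher, 267 lower and 75 enriched. Whether equal numbers mark samples of the same animals is not stated in the labels. Deviations from tissue means of 3 or 4 arrays cannot decide it. Those of same-numbered arrays correlated at -0.40 to 0.40 over 27 pairs, above 0.1 in 8. Pairs with different numbers ran from -0.28 to 0.34, and 0 of the lymphoid organ arrays correlated best with its own number. Where the cause of a change is not named here, it was not tested. Probes near background are bounds only, since 3129 probes were not tested and the lowest detected log2 signal differed between arrays.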
